A study of Mus musculus with 157 samples.

Results

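Megakaryocyte-erythroid progenitors (MEP) were set against common myeloid progenitors (CMP) in an atlas of RNA and of its N6-methyladenosine (m6A) mark in mouse blood-forming cells. The comparison was chosen by cell type label, with earlier results of these data known, and its samples were not picked by any measured value. It takes 2 MEP and 2 CMP libraries of input RNA, and 2 MEP and 2 CMP libraries of RNA bound by an anti-m6A antibody (IP). These are 8 of the 157 samples of the series and 8 of the 64 atlas libraries. The atlas holds 16 cell types with 2 input and 2 IP libraries each, all from wild-type, untreated mice. A second set of libraries, made to compare Mettl3 genotypes, holds 8 further wild-type libraries of MEP and CMP among its 56, again 2 input and 2 IP per cell type and labelled untreated. New RNA was measured in 6 cell types after labelling with 4-thiouridine for 3 h, with 2 MEP and 2 CMP libraries among its 12. All groups share the wild-type genotype, and within each set MEP and CMP do not differ in a stated genotype or treatment. Of the groups used here only the new RNA libraries received 4-thiouridine. The sources used here do not give age, strain, sex or sorting gates. They also do not say whether the libraries of a cell type came from separate animals, so the p-values measure only how far these samples differ, which may be a technical spread.

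CMP lie upstream of the red cell, platelet, granulocyte and monocyte lineages, and MEP are conventionally described as their descendants with red cell and platelet potential. Erythroid identity is built by GATA1 and its partners with KLF1, which switch on haem synthesis, globins and the red cell membrane under the hormone erythropoietin, whereas PU.1 (Spi1) and C/EBP alpha (Cebpa) drive the granule proteins and cytokine receptors of the granulocyte and monocyte lineages. m6A is placed on RNA by a complex around METTL3, and antibody-bound RNA read against input RNA gives the relative enrichment of the mark on the transcripts of a gene.

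The sequences just upstream of 6 genes that the results turn on are shown first, because these genes differ between the progenitors and because the stretches hold letters that the factors named above can bind. They are 250 bases before the RefSeq start on GRCm38.p6, read 5′ to 3′ on the strand of the gene. In the promoters of Klf1 (chr8:84901732-84901981, plus strand), Alas2 (chrX:150547167-150547416, plus strand) and Epor (chr9:21963577-21963826, minus strand), which encode an erythroid transcription factor, the erythroid enzyme of the first step of haem synthesis and the erythropoietin receptor, capitals mark a GATA motif. In the promoters of Mpo (chr11:87793534-87793783, plus strand), Elane (chr10:79886062-79886311, plus strand) and Csf3r (chr4:126024409-126024658, plus strand), which encode myeloperoxidase, neutrophil elastase and the granulocyte colony-stimulating factor receptor, capitals mark a PU.1 motif.
Klf1: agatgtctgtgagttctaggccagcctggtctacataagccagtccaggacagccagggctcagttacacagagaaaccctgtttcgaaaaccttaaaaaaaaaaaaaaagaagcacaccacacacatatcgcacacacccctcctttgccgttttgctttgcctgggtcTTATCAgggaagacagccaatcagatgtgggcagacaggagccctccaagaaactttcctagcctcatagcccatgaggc
Alas2: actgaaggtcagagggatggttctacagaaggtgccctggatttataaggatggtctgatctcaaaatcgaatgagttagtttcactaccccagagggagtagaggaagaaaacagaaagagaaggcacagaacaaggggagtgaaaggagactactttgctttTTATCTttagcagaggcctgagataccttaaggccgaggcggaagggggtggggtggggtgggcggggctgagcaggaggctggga
Epor: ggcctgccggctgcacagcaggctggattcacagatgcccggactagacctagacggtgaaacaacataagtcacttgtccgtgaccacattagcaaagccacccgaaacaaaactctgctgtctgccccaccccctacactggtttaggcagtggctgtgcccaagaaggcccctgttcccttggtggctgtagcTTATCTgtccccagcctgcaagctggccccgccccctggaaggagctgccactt
Mpo: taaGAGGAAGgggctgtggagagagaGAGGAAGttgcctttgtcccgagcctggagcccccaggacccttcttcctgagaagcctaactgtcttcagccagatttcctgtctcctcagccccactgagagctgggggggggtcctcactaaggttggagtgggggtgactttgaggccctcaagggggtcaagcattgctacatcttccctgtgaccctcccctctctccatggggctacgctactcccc
Elane: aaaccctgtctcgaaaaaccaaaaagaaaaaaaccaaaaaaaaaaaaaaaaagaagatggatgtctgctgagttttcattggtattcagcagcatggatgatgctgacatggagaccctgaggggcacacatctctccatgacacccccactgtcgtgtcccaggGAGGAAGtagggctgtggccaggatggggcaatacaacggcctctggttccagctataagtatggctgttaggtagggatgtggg
Csf3r: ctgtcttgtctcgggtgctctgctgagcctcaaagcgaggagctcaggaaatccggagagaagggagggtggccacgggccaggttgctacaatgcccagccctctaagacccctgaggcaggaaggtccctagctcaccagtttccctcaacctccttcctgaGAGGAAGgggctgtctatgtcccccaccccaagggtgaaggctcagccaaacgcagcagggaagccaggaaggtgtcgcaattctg

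The GATA motif was searched as AGATAA and, in further forms, as AGATAG, then TGATAA, and last as TGATAG. The PU.1 motif was searched as GAGGAAG, and both were read on either strand. The 2 motifs can share bases where they meet, and did not in these 6 windows. The GATA match began 80 bases before the start of Klf1, 86 before that of Alas2 and 54 before that of Epor. The PU.1 matches began 247 and 224 bases before the start of Mpo, 85 before that of Elane and 86 before that of Csf3r. Of the 15245 windows that matched a gene tested for expression, 19.6% held the GATA letters and 10.9% held the PU.1 letters. The GATA letters stood in 21.8% of the 947 windows of genes higher in MEP and in 19.3% of the 2083 windows of genes lower in MEP. The PU.1 letters stood in 9.82% of the windows of genes higher in MEP and in 15.4% of the windows of genes lower in MEP. Counts of windows were also taken for those called genes of 5 lists that had a window. Windows existed for 10 of 17 red cell membrane genes, 10 of 12 haem synthesis genes and 8 of 8 erythroid transcription factors. They existed for 9 of 11 primary granule genes and 11 of 14 myeloid transcription factors. GATA letters were in 7 of 10 windows of red cell membrane genes, 3 of 13 of haem synthesis genes, 4 of 12 of erythroid transcription factors, 1 of 17 of myeloid transcription factors and 0 of 9 of primary granule genes. PU.1 letters were in 2, 3, 1, 3 and 5 windows of the same lists, the 3 windows of myeloid transcription factors belonging to 1 gene. Of the 2 further motifs searched, CCNCNCCC, which KLF factors bind, was found in 61.8% of the windows of genes higher in MEP, 65.0% of those of genes lower in MEP and 59.5% of all. TTGCNNAA and its alternative form TTNNGCAA, which C/EBP factors bind, were found in 7.18%, 8.93% and 8.34% of the same windows. For the 5 lists, in the order given for the GATA letters, the KLF letters were in 5, 8, 10, 15 and 5 windows. The C/EBP letters were in 0, 0, 1, 3 and 1 windows of these lists. The window of Alas2 also held the PU.1 letters 148 bases before the start. These matches describe letters and were not tested as binding sites.

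In input RNA, red cell genes were higher in MEP than in CMP, and megakaryocyte, granule, monocyte, dendritic cell and early progenitor genes were lower. Of 17165 genes tested with limma on log2(normalised count + 1), 967 were higher in MEP (5.63%) and 2010 were lower (11.7%) at a Benjamini-Hochberg adjusted p under 0.05. The median log2 difference over all genes tested was -0.04, and the lists that follow are to be read against these shares. Groups that did not overlap were found for 24.8% of genes with higher values in MEP and for 31.5% of genes with lower values. The values printed are the deposited normalised counts, which are not divided by transcript length, so they compare libraries and not genes. Depth was 20.8 M and 21.5 M recovered reads in the MEP input libraries, against 16.1 M and 14.5 M in the CMP input libraries. The Pearson correlation between replicates on the log2 scale was 0.989 in MEP and 0.983 in CMP. The libraries were bulk RNA, in which fewer cells of a type and less RNA per cell cannot be told apart.

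Among the regulators of erythroid identity, 8 of 17 listed transcription factors were higher in MEP and 0 were lower, with a list median of 0.87. Klf1 had normalised counts of 20948 and 23672 in MEP, against 2581 and 3689 in CMP (log2 difference 2.85 ± 0.64 SE, adjusted p = 0.00203 by limma). Gata1, the master regulator of the lineage, had 8435 and 10074 in MEP, against 2340.2 and 2672 in CMP (log2 difference 1.88 ± 0.42 SE, adjusted p = 0.00198 by limma). Gfi1b, a repressor needed for red cell and platelet formation, had 11151 and 13364 in MEP, against 2284 and 2697 in CMP (log2 difference 2.30 ± 0.43 SE, adjusted p = 0.000266 by limma). The groups did not overlap for any of these 3 genes, and the replicates of a cell type lay closer to each other than to either library of the other. Klf3, a repressor activated by KLF1, had 1191 and 1552 in MEP, against 243 and 547 in CMP (log2 difference 1.90 ± 0.46 SE, adjusted p = 0.00416 by limma). E2f2, a cell cycle regulator of terminal erythroid divisions, had 251 and 275 in MEP, against 92.3 and 82.5 in CMP (log2 difference 1.58 ± 0.37 SE, adjusted p = 0.00259 by limma). Tal1, a partner of GATA1, had 996 and 1038 in MEP, against 319 and 400.2 in CMP (log2 difference 1.50 ± 0.51 SE, adjusted p = 0.0418 by limma). In the same list Lmo2, the bridging subunit of the GATA1 complex, differed by 0.15 on the log2 scale, and Nfe2, which is used by both red cells and platelets, by -0.98, and neither passed the threshold. The count of 8 was 5 with MEP and CMP fitted alone, and it was also lower on leaving out any input library. Klf3 was no longer called with MEP and CMP fitted alone, nor without MEP input 2 or CMP input 1.

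The haem pathway moved almost as a whole: 11 of 14 genes were higher in MEP and 1 was lower, with a list median of 2.06. Slc25a38, the carrier that brings glycine into mitochondria for the first step, had 2071 and 2534 in MEP, against 289 and 349 in CMP (log2 difference 2.85 ± 0.32 SE, adjusted p = 1.73e-07 by limma). Fech, which inserts iron into the ring in the last step, had 3936 and 4081 in MEP, against 408 and 757 in CMP (log2 difference 2.85 ± 0.38 SE, adjusted p = 2.75e-06 by limma). Uros, an enzyme of the middle of the pathway, had 812 and 1060.3 in MEP, against 139.7 and 215 in CMP (log2 difference 2.41 ± 0.41 SE, adjusted p = 9.89e-05 by limma). For each of these the lowest MEP library exceeded the highest CMP library by more than the distance between replicates. The 2 forms of the first enzyme went opposite ways. Alas2, the erythroid form whose promoter is printed above, had 69.6 and 153 in MEP, against 9.15 and 3.22 in CMP (log2 difference 3.99 ± 1.04 SE, adjusted p = 0.00691 by limma). Alas1, the housekeeping form, had 387 and 426 in MEP, against 2371 and 2971 in CMP (log2 difference -2.71 ± 0.39 SE, adjusted p = 8.23e-06 by limma). Alas2 counts were small and its MEP libraries differed between themselves, and it was not called without MEP input 2 or without CMP input 2, with an adjusted p of up to 0.100 by limma.

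Iron handling split, with 7 of 16 genes higher and 2 lower in MEP and a list median of 0.90. Slc40a1, the iron exporter ferroportin, had 309 and 348 in MEP, against 20.0 and 36.1 in CMP (log2 difference 3.56 ± 0.72 SE, adjusted p = 0.000695 by limma). Tfrc, the transferrin receptor through which erythroid cells take up iron, had 621 and 480.2 in MEP, against 174 and 89.6 in CMP (log2 difference 2.12 ± 0.37 SE, adjusted p = 0.000121 by limma). Slc11a2, which moves iron out of endosomes, had 1097 and 1482 in MEP, against 179 and 373 in CMP (log2 difference 2.30 ± 0.54 SE, adjusted p = 0.00300 by limma). Trf, the iron carrier transferrin itself, went the other way with 19.7 and 23.1 in MEP, against 3049 and 4183 in CMP (log2 difference -7.32 ± 0.41 SE, adjusted p = 2.77e-12 by limma). Hmox1, which degrades haem, was the other lower gene with a difference of -2.92, and it was lost with a pseudocount of 10 and without MEP input 1, CMP input 1 or CMP input 2, at an adjusted p of up to 0.108 by limma. The count of 7 was 2 without CMP input 1, 4 without MEP input 2, and 2 when MEP and CMP were fitted alone, where Tfrc had an adjusted p of 0.0571 by limma. Slc11a2 was lost without CMP input 1 and with MEP and CMP fitted alone.

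Of 10 listed globin genes 6 passed the filter on low values, and 4 of them were higher in MEP. Hba-a1, an adult alpha globin, had 4778 and 8053 in MEP, against 157 and 181 in CMP (log2 difference 5.19 ± 0.51 SE, adjusted p = 2.81e-08 by limma). Hbb-bs, an adult beta globin, had 1182 and 1773 in MEP, against 59.0 and 70.3 in CMP (log2 difference 4.47 ± 0.68 SE, adjusted p = 3.29e-05 by limma). Hba-a2 differed by 5.01 and Hbb-bt by 4.05. The 2 alpha genes, like the 2 beta genes, are near-identical copies between which reads can be split, so each pair is better read as 1 measurement. Across the atlas, Hba-a1 averaged 6416 in MEP and 169 in CMP, against 4096690 in the cells labelled Erythroid and 17348 in the cells labelled DC, so the globin level of MEP was far below that of the Erythroid libraries and below the mean of a type outside the lineage.

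Red cell surface and skeleton genes showed 17 of 24 higher and 0 lower, with a median of 2.76 (2.59 with genes at 0 in a cell type set to the bound that 3 reads allow). With MEP and CMP fitted alone 15 were higher and 1 was lower, and edgeR and DESeq2 on recovered reads each gave 18 higher and 1 lower. Fewer were called higher on leaving out any input library. Rhd, a Rh blood group protein, had 20487 and 21769 in MEP, against 799 and 1143 in CMP (log2 difference 4.46 ± 0.59 SE, adjusted p = 2.75e-06 by limma). Rhag, its partner in the membrane, had 3303 and 3927 in MEP, against 149.7 and 287 in CMP (log2 difference 4.11 ± 0.51 SE, adjusted p = 1.04e-06 by limma). The groups lay far apart for both genes. The skeleton proteins Add2 and Sptb, which are beta adducin and the erythroid beta spectrin, differed by 4.21 and 3.99. Of the carbonic anhydrases, Car1 had 57506 and 48174 in MEP, against 14662 and 7973 in CMP, a log2 difference of 2.28. Car2 had 92416 and 70538 in MEP, against 14325 and 8434 in CMP, a log2 difference of 2.88. Car1 was not called without CMP input 2, with an adjusted p of 0.0732 by limma. Epor, which transmits the erythropoietin signal, had 2865 and 3020.1 in MEP, against 311 and 532 in CMP (log2 difference 2.85 ± 0.89 SE, adjusted p = 0.0261 by limma). Although its groups lay far apart, its call was lost whichever of the 4 input libraries was left out, at adjusted p-values between 0.0539 and 0.179 by limma.

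**Figure D1:**
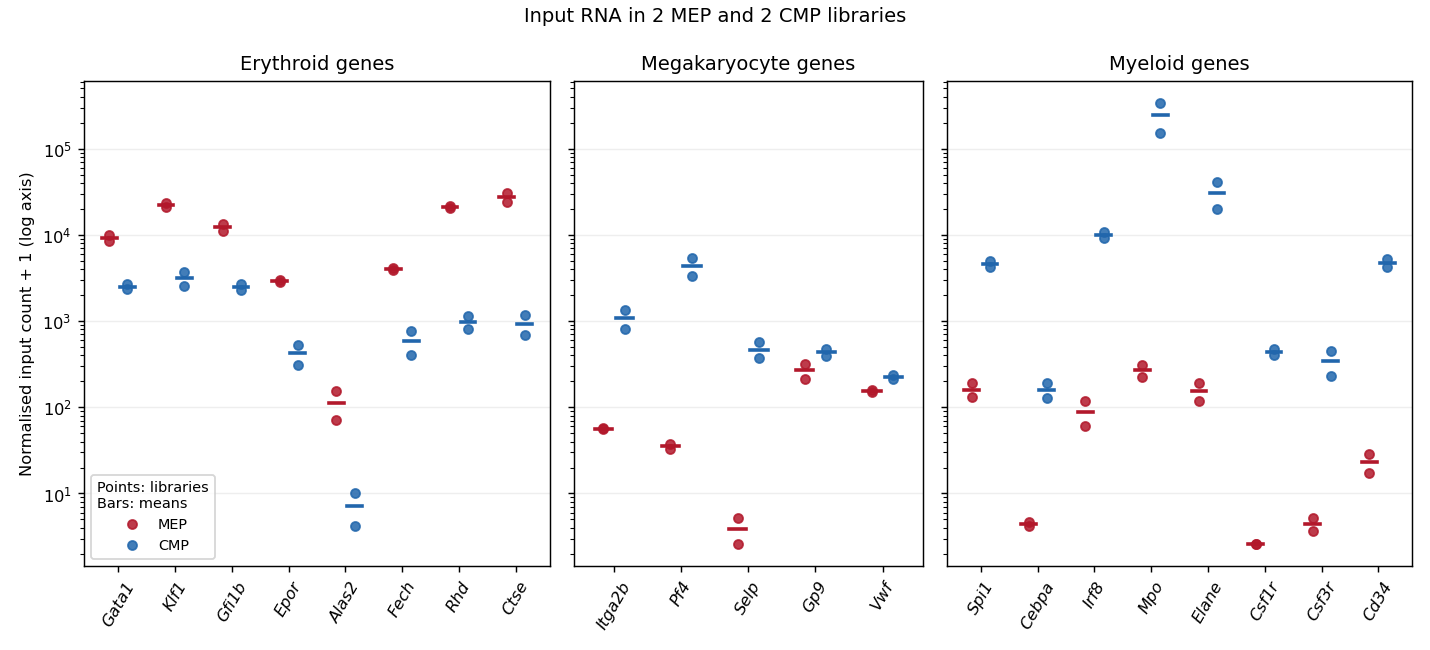
Normalised input count + 1 on a log axis for genes named in the text, with 1 point per library, a bar at the mean, and MEP left of CMP for each gene. Erythroid genes such as Klf1 (20948 and 23672 in MEP, against 2581 and 3689 in CMP) lie higher in MEP, whereas Pf4, Mpo and Cd34 lie lower in MEP with no overlap. Cd34 belongs to the genes by which these progenitors are conventionally sorted.

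The platelet side was lower in MEP. Of 27 megakaryocyte and platelet genes, 0 were higher and 17 were lower in MEP, with a median of -3.92. Pf4, the alpha granule chemokine platelet factor 4, had 31.9 and 36.8 in MEP, against 5464 and 3360.4 in CMP (log2 difference -6.93 ± 0.75 SE, adjusted p = 2.20e-07 by limma). Itga2b, the integrin alpha IIb known as CD41, had 56.3 and 54.6 in MEP, against 815 and 1342 in CMP (log2 difference -4.21 ± 0.58 SE, adjusted p = 4.54e-06 by limma). Every MEP library was below every CMP library for these 2 genes. Selp, the adhesion molecule P-selectin, had 1.59 and 4.20 in MEP, against 368 and 566 in CMP (log2 difference -6.96 ± 0.58 SE, adjusted p = 1.45e-09 by limma), and Gp1bb and Plek, a subunit of the von Willebrand factor receptor and a platelet signalling substrate, differed by -5.94 and -6.11. Gp9, another subunit of that receptor, had 214 and 320.0 in MEP, against 469 and 394 in CMP (log2 difference -0.71 ± 0.75 SE, adjusted p = 0.634 by limma). Vwf had 157 and 149 in MEP, against 212 and 234 in CMP (log2 difference -0.54 ± 0.62 SE, adjusted p = 0.679 by limma), and these 2 did not pass the threshold. The summed level of the list was 2342 and 2174 in MEP, against 13778 and 13689 in CMP, so the markers of the megakaryocyte lineage, which the label MEP also names, were several-fold lower in MEP than in CMP.

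The levels were also ordered across the 16 types, among them the cells labelled Erythroid and those labelled MkP, which stands for megakaryocyte progenitor. Gata1 averaged 9255 ± 1159 in MEP and 2506 ± 235 in CMP, with 15514 ± 1369 in Erythroid and 3595 ± 467 in MkP (SD, n = 2 each). Klf1 averaged 22310 ± 1926 in MEP and 3135 ± 783 in CMP, with 33471 ± 2495 in Erythroid and 1149 ± 394 in MkP (SD, n = 2 each). For these 2 genes MEP ranked second of 16 after Erythroid, beyond the spread of its neighbours in the order. The next in the order was MkP for Gata1 and CMP for Klf1. Pf4 averaged 34.3 ± 3.47 in MEP and 4412 ± 1487 in CMP, with 46319 ± 42380 in MkP (SD, n = 2 each), where the MkP libraries were too far apart to place the level closely. Of the 12 genes with the largest positive difference between MEP and CMP, Erythroid was above MEP for 10, and MEP was first or second of the 16 types for 10. Of the 12 with the largest negative difference, MEP was the lowest of the 16 types for 10 and the lowest or next to lowest for all 12. These ranks are a description, since the genes were picked for their difference.

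**Figure D2:**
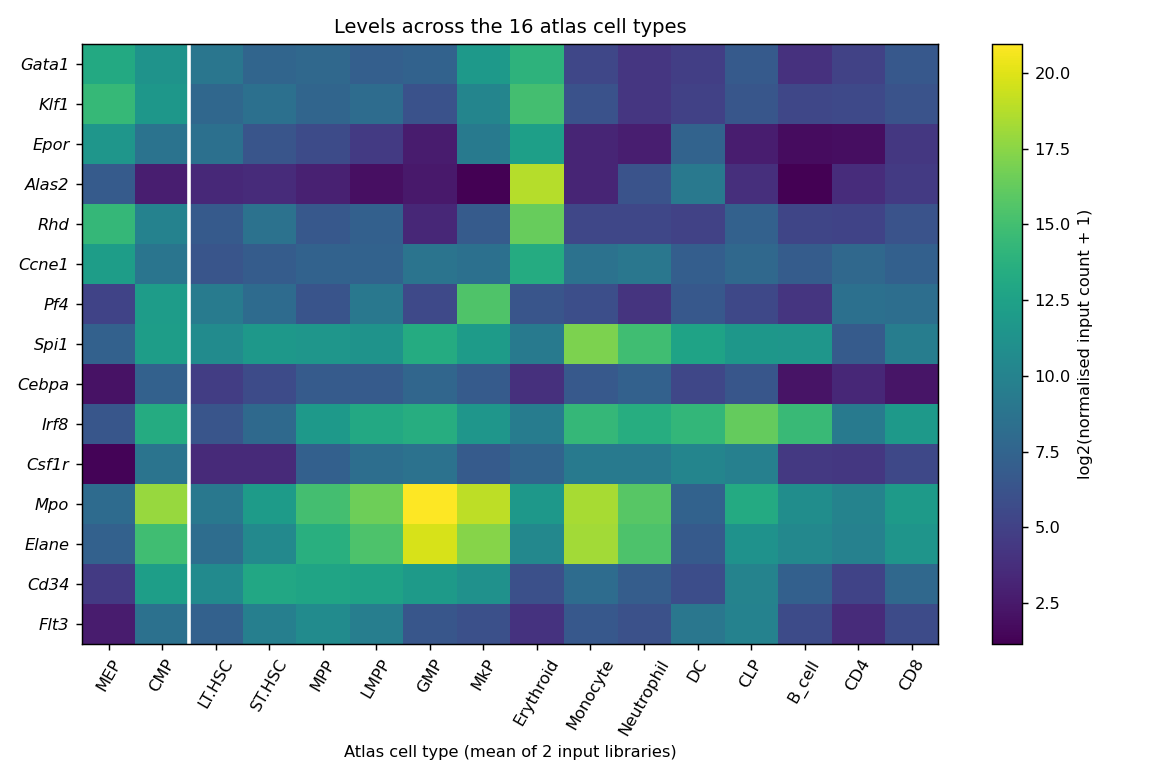
Mean log2(normalised input count + 1) of 2 libraries in each of the 16 atlas cell types, with MEP and CMP left of the white line and the other types right of it. Colours compare cell types within a gene: for Klf1 the highest types are Erythroid at 33471 and MEP at 22310, and for Pf4 the highest are MkP at 46319 and CMP at 4412.

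The granule programme had the largest median difference of the 33 lists. Of 13 primary granule genes tested, 0 were higher and 11 were lower in MEP, with a median of -6.63. Mpo had 312 and 225 in MEP, against 338021 and 153094 in CMP (log2 difference -9.74 ± 0.61 SE, adjusted p = 1.28e-11 by limma). Ctsg, the protease cathepsin G, had 81.3 and 37.8 in MEP, against 46153 and 12964 in CMP (log2 difference -8.76 ± 0.74 SE, adjusted p = 9.37e-09 by limma). Elane had 189.6 and 118 in MEP, against 41288 and 20081 in CMP (log2 difference -7.58 ± 0.68 SE, adjusted p = 9.48e-09 by limma). Prtn3, proteinase 3, had 66.9 and 55.2 in MEP, against 17882 and 7467 in CMP (log2 difference -7.55 ± 0.45 SE, adjusted p = 5.60e-12 by limma). For all 4 genes the CMP libraries differed by more than 2-fold between themselves, CMP input 1 being the higher, and both stood more than 100-fold above either MEP library. The summed level of the list was 7035 and 5192 in MEP, against 490865 and 217092 in CMP. In the MEP libraries 6.29% and 6.06% of the total went to 10 genes, against 15.3% in CMP input 1 and 7.93% in CMP input 2. Mpo and Elane stayed called without CMP input 1.

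The factors upstream of that programme were lower too, 14 of 18 myeloid transcription factors being lower and 0 higher in MEP, with a median of -4.19. Spi1 had 188 and 129.8 in MEP, against 4941 and 4221 in CMP (log2 difference -4.86 ± 0.36 SE, adjusted p = 2.06e-10 by limma). Cebpa had 3.19 and 3.68 in MEP, against 190.4 and 126 in CMP (log2 difference -5.14 ± 0.84 SE, adjusted p = 5.09e-05 by limma). Irf8, which directs monocyte and dendritic cell fate, had 116 and 59.4 in MEP, against 10893 and 9285 in CMP (log2 difference -6.90 ± 0.47 SE, adjusted p = 5.37e-11 by limma). No MEP library reached 1 in 20 of the level of a CMP library for any of them. Tfec, a relative of the lysosomal regulator MITF, had 0 and 0 in MEP, against 121 and 129 in CMP, at least 78.3-fold lower with a floor of 3 reads per library. Cebpe and Nfil3, which act in granulocyte maturation and in innate lymphoid and cytokine responses, differed by -5.36 and -5.18.

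Of 29 cytokine and growth factor receptors, 18 were lower and 2 were higher in MEP, with a median of -2.17. Csf1r, the macrophage colony-stimulating factor receptor, had 1.59 and 1.58 in MEP, against 407 and 468 in CMP (log2 difference -7.40 ± 0.50 SE, adjusted p = 4.32e-11 by limma). Csf3r had 4.25 and 2.63 in MEP, against 231 and 453 in CMP (log2 difference -6.22 ± 0.52 SE, adjusted p = 1.72e-09 by limma). Csf2rb, the shared beta chain for IL-3, IL-5 and GM-CSF, had 5.31 and 5.25 in MEP, against 512 and 729 in CMP (log2 difference -6.61 ± 0.42 SE, adjusted p = 1.32e-11 by limma). Flt3, the receptor of multipotent and lymphoid-primed progenitors, had 5.31 and 5.25 in MEP, against 395 and 353 in CMP (log2 difference -5.90 ± 0.54 SE, adjusted p = 7.50e-09 by limma). None of these 4 receptors exceeded 5.31 in a MEP library, and none was below 231 in a CMP library. The 2 receptors higher in MEP were Epor and Il1rl1, the IL-33 receptor, whose difference was 1.58. Both were lost on leaving out any 1 of the 4 input libraries.

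Kit and Cd34 belong to the surface genes by which these progenitors are conventionally sorted, and the gates are not given, so their values are a check and not a finding. Kit, the stem cell factor receptor, had 419.6 and 339.9 in MEP, against 408 and 349 in CMP (log2 difference 0.00 ± 0.57 SE, adjusted p = 1.00 by limma). Cd34 had 16.5 and 27.8 in MEP, against 4288 and 5239.8 in CMP (log2 difference -7.72 ± 0.39 SE, adjusted p = 2.88e-13 by limma). Fcgr3, 1 of the genes behind the CD16/32 gate, had 14.9 and 11.6 in MEP, against 1203 and 985 in CMP (log2 difference -6.27 ± 0.96 SE, adjusted p = 6.57e-05 by limma). Kit overlapped between the groups, and Cd34 and Fcgr3 did not.

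The stem and early progenitor list of 30 genes had 17 lower and 2 higher in MEP, with a median of -1.92. With MEP and CMP fitted alone 15 were lower and 1 was higher. On recovered reads edgeR gave 19 lower and DESeq2 20, each with 2 higher. Fewer were called in both directions on leaving out any input library. The list holds Cd34, which is a check as said above. Satb1, a chromatin organiser of lymphoid priming, had 5.84 and 3.68 in MEP, against 251 and 211 in CMP (log2 difference -5.35 ± 0.33 SE, adjusted p = 8.19e-12 by limma). Procr, a marker of stem cells, had 0.531 and 0.525 in MEP, against 39.9 and 35.4 in CMP (log2 difference -4.66 ± 1.03 SE, adjusted p = 0.00161 by limma). Hlf, a stem cell transcription factor, had 6.37 and 3.68 in MEP, against 98.96 and 76.7 in CMP (log2 difference -3.91 ± 0.90 SE, adjusted p = 0.00248 by limma). All 3 were close to the floor in MEP. Gata2, which precedes Gata1 in the lineage, had 313 and 313 in MEP, against 557 and 1589 in CMP (log2 difference -1.59 ± 0.68 SE, adjusted p = 0.125 by limma) and did not pass the threshold. It did with a pseudocount of 10 (adjusted p = 0.0396 by limma) and on recovered reads (adjusted p = 0.0389 by edgeR and 0.0253 by DESeq2). Mllt3, a regulator of stem cells with erythroid and megakaryocytic roles, was among the 2 higher, with a difference of 2.27.

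**Figure D3:**
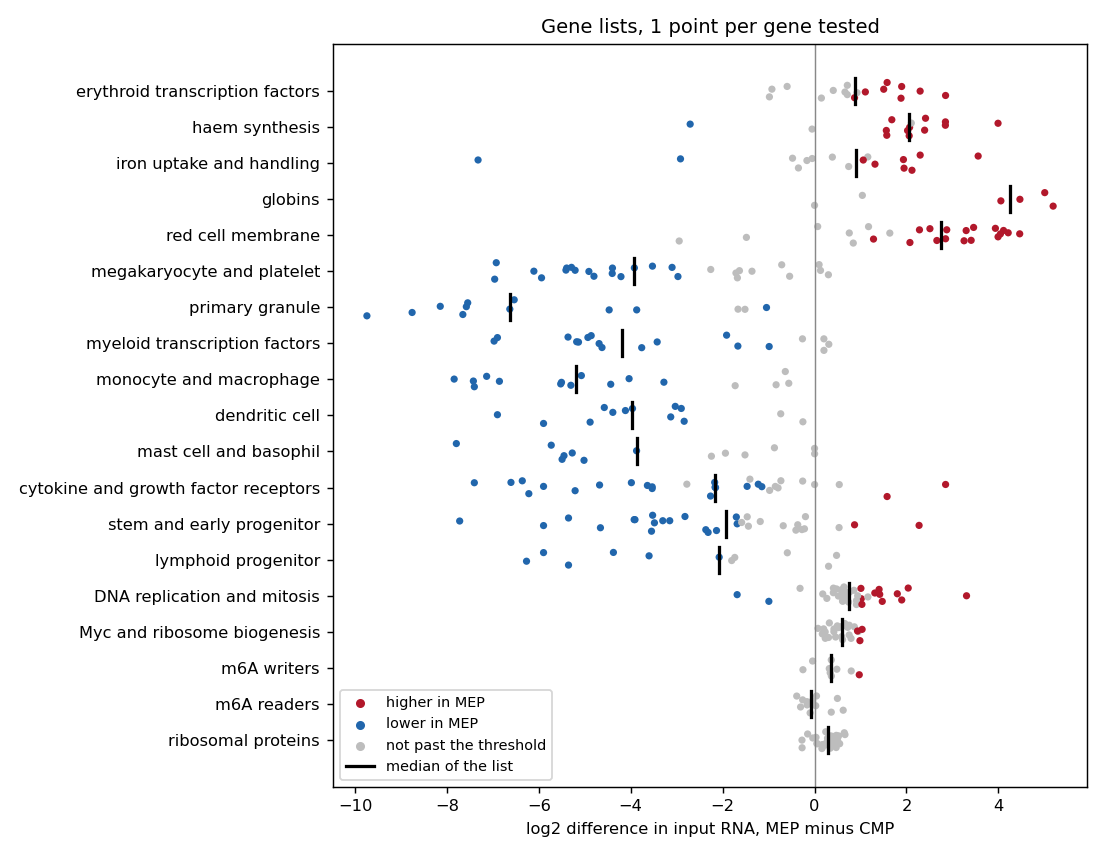
Log2 difference in input RNA, MEP minus CMP, for every tested gene of the lists named on the left, with coloured points past the threshold and a bar at the list median. The 4 erythroid effector lists have medians between 0.90 and 4.26, and the primary granule list has a median of -6.63.

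Cell cycle genes leaned towards MEP. Of 34 genes of DNA replication and mitosis, 11 were higher and 2 were lower, with a median of 0.75. Ccne1, the cyclin that drives entry into S phase, had 4706 and 4469.7 in MEP, against 402 and 532 in CMP (log2 difference 3.31 ± 0.34 SE, adjusted p = 3.84e-08 by limma). Cdc6, which loads the replicative helicase, had 2115 and 2951 in MEP, against 446 and 828 in CMP (log2 difference 2.04 ± 0.37 SE, adjusted p = 0.000192 by limma). Rrm2, which makes deoxynucleotides, had 4089 and 4638 in MEP, against 991 and 1377 in CMP (log2 difference 1.90 ± 0.40 SE, adjusted p = 0.000970 by limma). Ccnd1, a cyclin of G1, was lower with 127 and 109 in MEP, against 419 and 347 in CMP (log2 difference -1.68 ± 0.40 SE, adjusted p = 0.00294 by limma). Of 7 inhibitors of cyclin-dependent kinases 2 were lower. Cdkn1a had 98.8 and 116 in MEP, against 508 and 579 in CMP (log2 difference -2.33 ± 0.43 SE, adjusted p = 0.000212 by limma), and Cdkn2d differed by -1.45. The groups did not overlap for any gene named here. The count of 11 was between 7 and 9 on leaving out a library (7 without MEP input 2), and 18 with DESeq2. It was 6 with MEP and CMP fitted alone, where Cdc6 had an adjusted p of 0.0598 by limma. Myc, a growth regulator, had 4603 and 6125 in MEP, against 3934 and 5451 in CMP (log2 difference 0.20 ± 0.42 SE, adjusted p = 0.862 by limma). In its list of ribosome biogenesis genes 25 of 25 differences were positive, with a list median of 0.59. Over these genes, which are not independent replicates, CMP input 1 minus CMP input 2 had a median of 0.36, and MEP input 1 minus MEP input 2 of -0.05. Of the list 3 passed the threshold, and these calls were lost without MEP input 1 or without MEP input 2.

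Markers of other cell types that a progenitor sort could hold were measured in the same libraries. Mast cell and basophil genes were lower in MEP for 7 of 13, with a summed level of 3139 and 1845 in MEP, against 17661 and 7576 in CMP. Mcpt8, a basophil protease, had 5.84 and 1.58 in MEP, against 1193 and 728 in CMP (log2 difference -7.80 ± 0.73 SE, adjusted p = 4.48e-08 by limma). Cpa3, the mast cell carboxypeptidase, had 123 and 57.8 in MEP, against 4023 and 1894 in CMP (log2 difference -5.02 ± 0.79 SE, adjusted p = 6.40e-05 by limma). Monocyte and macrophage genes were lower for 12 of 16, with a summed level of 204 and 213 in MEP, against 24037 and 13892 in CMP. Dendritic cell genes were lower for 11 of 13, with a summed level of 4230 and 3642 in MEP, against 57039 and 44824 in CMP. The sums of these 3 lists did not overlap between the groups. Lymphoid lists were mixed. Of 11 lymphoid progenitor genes 0 were higher and 6 were lower in MEP, the sums being 130 and 120 in MEP, against 4272 and 3815 in CMP. Of 15 T and NK cell genes 3 were higher in MEP and 0 were lower, with a list median of -0.16 and 7 of 15 differences positive. The sums were 576 and 507 in MEP, against 408 and 415 in CMP. Cd3g, a subunit of the T cell receptor complex, had 60.5 and 35.2 in MEP, against 1.66 and 0.645 in CMP (log2 difference 4.50 ± 0.66 SE, adjusted p = 1.30e-05 by limma). Cd3e and Cd3d, further subunits, differed by 1.28 and 0.54 and did not pass the threshold. Ncr1, another T and NK cell marker, differed by -0.77 and did not pass it either. The count of 3 was 1 without MEP input 1, MEP input 2 or CMP input 1, and Cd3g stayed called on leaving out each of the 4 input libraries in turn. Of 12 B cell genes 1 was higher and 2 were lower, with a list median of 0.27 and 9 of 12 differences positive. The sums were 508 and 579 in MEP, against 8663 and 8890 in CMP, where Ighm made up most of the sum. The 2 lower genes were Ighm and Cd79b, and Cd79b, a B cell receptor subunit, differed by -4.36 (adjusted p = 5.96e-10 by limma). Ighm, the immunoglobulin mu heavy chain, had 191 and 198 in MEP, against 6952 and 7528 in CMP (log2 difference -5.21 ± 0.79 SE, adjusted p = 2.92e-05 by limma). Cd79a, the other subunit, went the other way with 31.3 and 65.7 in MEP, against 3.33 and 18.0 in CMP (log2 difference 2.35 ± 0.66 SE, adjusted p = 0.0136 by limma). Cd79a was lost with MEP and CMP fitted alone, and without MEP input 2 or CMP input 1. The part of these other cell types in the differences was not tested.

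Among the genes of the m6A machinery 1 passed the threshold. Of 9 genes that write m6A, 1 was higher in MEP, Mettl16, which methylates U6 small nuclear RNA and a few other targets, with 816 and 718 in MEP, against 370.1 and 409.9 in CMP (log2 difference 0.97 ± 0.26 SE, adjusted p = 0.00969 by limma). It was lost with MEP and CMP fitted alone, and without MEP input 1 or CMP input 1. Mettl3 had 643 and 1324 in MEP, against 1192 and 759 in CMP (log2 difference -0.04 ± 0.47 SE, adjusted p = 1.00 by limma), its groups overlapping. Of 2 erasers and 12 readers, 0 passed the threshold by limma, edgeR or DESeq2 and 0 had an unadjusted p under 0.05 by limma. Igf2bp2, an RNA-binding reader that stabilises targets, had 11.7 and 11.6 in MEP, against 16.6 and 10.3 in CMP (log2 difference -0.16 ± 0.64 SE, adjusted p = 0.951 by limma).

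The wild-type libraries of the second set gave a measurement on samples that the atlas comparison did not use. Depth was 3.54 M and 14.7 M recovered reads in its MEP inputs, against 8.51 M and 5.40 M in its CMP inputs. By limma 340 of 15030 genes were higher in MEP (2.26%) and 1071 were lower (7.13%), with a median difference of -0.26. Groups that did not overlap were found for 22.5% of genes with higher values in MEP and for 33% of genes with lower values. Of the 967 genes higher in MEP in the atlas 938 were tested. Of these 279 were also called higher, which is 29.7% of them and 82.1% of the second set's own calls, and 0 were called lower. Of the 2010 genes lower in MEP in the atlas 1978 were tested. Of these 922 were also called lower, which is 46.6% of them and 86.1% of the second set's own calls, and 0 were called higher. The sign was the same for 919 of the atlas-higher genes and 1959 of the atlas-lower genes tested. Across 14444 genes tested in both sets, which are not independent replicates, the 2 differences had a Pearson r of 0.800 and a Spearman rho of 0.757.

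Named genes carried over to different extents. In the second set Fech had 5174 and 9746 in MEP, against 809 and 829 in CMP (log2 difference 3.12 ± 0.60 SE, adjusted p = 0.00121 by limma). Ccne1 had 6316 and 11169 in MEP, against 505 and 395 in CMP (log2 difference 4.23 ± 0.97 SE, adjusted p = 0.00759 by limma). Epor had 2382 and 2710.0 in MEP, against 356 and 218 in CMP (log2 difference 3.18 ± 0.80 SE, adjusted p = 0.0116 by limma). Cd34 had 355 and 141 in MEP, against 7184 and 8716 in CMP (log2 difference -5.14 ± 0.54 SE, adjusted p = 2.07e-06 by limma). All 4 had separate groups, in the direction of the atlas, where Cd34 is again a check, since these progenitors are conventionally sorted by it. Klf1 had 18659 and 50167 in MEP, against 1705 and 1018 in CMP (log2 difference 4.54 ± 1.44 SE, adjusted p = 0.0590 by limma) and Gata1 had 4125 and 14577 in MEP, against 1463 and 1255 in CMP (log2 difference 2.52 ± 1.03 SE, adjusted p = 0.148 by limma). Their groups did not overlap either, but the MEP libraries were more than 2-fold apart and neither gene passed the threshold. Mpo had 10465 and 2729 in MEP, against 302269 and 160405 in CMP (log2 difference -5.36 ± 1.56 SE, adjusted p = 0.0399 by limma), and its MEP level was thus above that of the atlas MEP libraries in both libraries of the second set, a comparison across separately normalised tables. Gata2, not called in the atlas, had 371 and 134 in MEP, against 1489 and 839 in CMP (log2 difference -2.32 ± 0.69 SE, adjusted p = 0.0349 by limma). Lists carried over unevenly. On the erythroid side the second set called 7 of 14 haem genes higher and 1 lower, 9 of 24 red cell membrane genes higher and 1 lower, 5 of 16 iron genes higher and 1 lower, 1 of 17 erythroid transcription factors higher, and 0 of 4 globin genes by limma. It called 3 of 34 genes of DNA replication and mitosis higher and 1 lower. Lower in MEP were 13 of 27 megakaryocyte genes, 9 of 13 primary granule genes, 7 of 18 myeloid transcription factors, 14 of 29 receptors and 15 of 30 stem and early progenitor genes. Of the markers of other cell types 8 of 16 monocyte genes, 3 of 13 mast cell and basophil genes and 1 of 13 dendritic cell genes were lower, and 0 of 15 T and NK cell genes were called by limma.

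**Figure D4:**
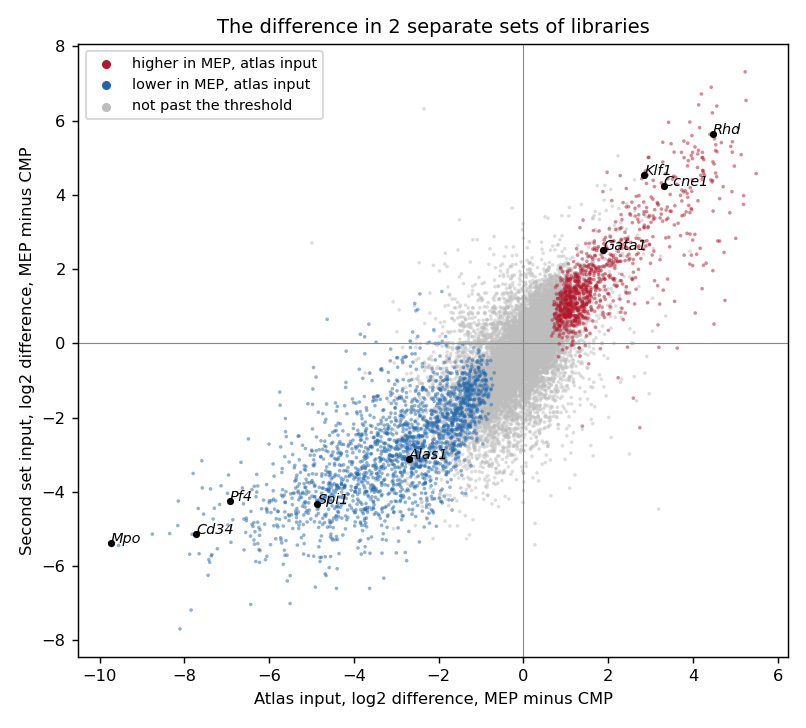
Log2 difference in input RNA, MEP minus CMP, in the atlas (x axis) and in wild-type cells of the second set (y axis), 1 point per gene, coloured by the atlas call. Genes coloured as higher in MEP lie to the upper right and those coloured as lower to the lower left, with the same sign for 919 of 938 and 1959 of 1978 tested in both sets.

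Antibody-bound RNA differed between the progenitors much as input RNA did. Depth was 21.2 M and 19.7 M counts in MEP, against 24.6 M and 18.6 M in CMP. In all, 229 of 19686 genes were higher in MEP (1.16%) and 976 were lower (4.96%) with edgeR's quasi-likelihood test, and groups did not overlap for 23% with higher values and 31.3% with lower values. Of the 2010 genes lower in MEP in input RNA 2008 were tested in the IP libraries, and 904 were also lower there, which is 45.0% of them and 92.6% of the IP calls. Of the 967 higher in input RNA 957 were tested, and 135 were also higher, which is 14.1% of them and 59.0% of the IP calls. Across 16747 genes the input and IP differences had a Pearson r of 0.732, and an IP library holds RNA of the same cell type as its input, so this is not a separate sample of the cells. Rhd had a scaled IP count of 4728 and 6357 in MEP, against 293 and 510.4 in CMP (log2 difference 3.81, adjusted p = 0.00551 by edgeR). Spi1 had 56.1 and 46.4 in MEP, against 2429 and 2287 in CMP (log2 difference -5.49, adjusted p = 2.57e-07 by edgeR). Cd34 had 54.8 and 35.2 in MEP, against 5530.5 and 3037 in CMP (log2 difference -6.53, adjusted p = 8.21e-08 by edgeR). These 3 genes were separated in IP as in input, Cd34 being a check because of its use in conventional sorting. Klf1 had 5267 and 6154 in MEP, against 1157 and 1257 in CMP (log2 difference 2.27, adjusted p = 0.129 by edgeR). Gata1 had 3679 and 3784 in MEP, against 974 and 1077 in CMP (log2 difference 1.89, adjusted p = 0.567 by edgeR), which did not pass the threshold although their IP libraries did not overlap.

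**Figure D5:**
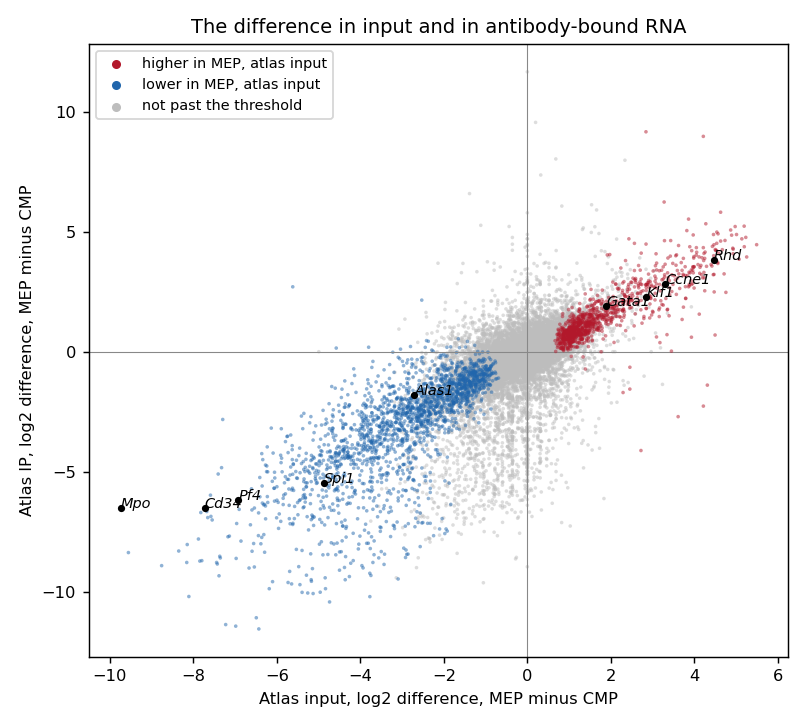
Log2 difference in input RNA (x axis) and in antibody-bound RNA (y axis) of the atlas, both MEP minus CMP, 1 point per gene, coloured by the call in input RNA. Genes higher or lower in input RNA had the same sign in IP for 98.9% and 99.1% of those tested in both.

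Relative enrichment, the log2 IP minus log2 input value with each table scaled on its own, had few differences between the progenitors beyond its error. By limma on all 64 atlas libraries, 0 of 16753 genes had a higher enrichment in MEP and 1 had a lower one (0.00597%), with 222 genes at an unadjusted p under 0.05 (1.33%), and the median standard error of a difference was 1.07 on the log2 scale. Differences of 1 log2 unit were therefore not detectable in this fit for a gene with that error, which is pooled over 16 cell types. With MEP and CMP fitted alone the median standard error was 0.55. In that fit 913 genes (5.45%) had an unadjusted p under 0.05 by limma, and 0 passed the threshold in either direction. The 1 gene was Atp1b1, a subunit of the sodium pump, which is outside the rule for named genes and was picked after its values were seen. Its IP libraries had 0 and 0 reads in MEP, against 94 and 54 in CMP, so its scaled IP level was at least 17.8-fold lower in MEP with a floor of 3 reads per library. Its scaled input counts overlapped, with 16.0 and 12.8 in MEP, against 11.1 and 27.99 in CMP. The enrichment difference of Atp1b1 was -5.15 ± 0.87 (SE, adjusted p = 0.0111 by limma), and it was not called with a pseudocount of 10 or with MEP and CMP fitted alone. Leaving out CMP input 2 left 1 gene with a lower enrichment, and leaving out any of the other 7 MEP or CMP libraries left 0.

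The genes that define the lineages had no called difference in enrichment. Klf1 had scaled input counts of 21751 and 25114 in MEP, against 2646 and 4107 in CMP, and scaled IP counts of 5267 and 6154 in MEP, against 1157 and 1257 in CMP, which gave a difference in enrichment of -0.59 ± 1.30 (SE, adjusted p = 1.00 by limma). Gata1 had scaled IP counts of 3679 and 3784 in MEP, against 974 and 1077 in CMP, and its enrichment differed by 0.01 ± 1.76 (SE, adjusted p = 1.00 by limma). Spi1 had scaled IP counts of 56.1 and 46.4 in MEP, against 2429 and 2287 in CMP, and its enrichment differed by -0.62 ± 0.58 (SE, adjusted p = 1.00 by limma). For these 3 genes IP and input were separated between the progenitors in the same direction, and the ratio of the 2 differed by less than 2 standard errors. Differences in enrichment were -0.06 for Epor, -1.94 for Cebpa, 0.37 for Gata2, 1.24 for Cd34, 1.33 for Flt3, -0.19 for Myc, 1.12 for Mettl3 and 0.27 for Igf2bp2, all with an adjusted p of 1.00 by limma. Mettl3 had scaled IP counts of 3237 and 4258 in MEP, against 2248 and 1425 in CMP, which do not overlap, and scaled input counts of 668 and 1405 in MEP, against 1222 and 845 in CMP, which do. In the second set 0 of 14575 genes were called in either direction by limma, with 21 at an unadjusted p under 0.05 (0.144%). Across 14143 genes the enrichment differences of the 2 sets had a Pearson r of 0.083.

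New RNA was read as the percent of T-to-C conversions per gene, an index of how much of a transcript was made during labelling. By limma, 0 of 13909 genes were higher in MEP and 3 were lower (0.0216%), with 1277 at an unadjusted p under 0.05 and a median log2 difference of -0.49. Groups did not overlap for 9.07% of genes with higher values in MEP and for 33.6% with lower values. The first of the 3 was Nod2, a sensor of bacterial cell walls, with 0 and 0% in MEP, against 7.87 and 6.08% in CMP. Tspan7, a tetraspanin, had 0.0558 and 0% in MEP, against 9.88 and 8.30% in CMP. Dmxl2, a regulator of the vacuolar proton pump, had 0.0349 and 0.0147% in MEP, against 3.13 and 2.63% in CMP. Each had an adjusted p of 0.0476 by limma. They were picked after their values were seen, their groups did not overlap, and 0 genes were called when any MEP or CMP library was left out. The coverage behind the percentages is not known, so a 0 may be a gene with few reads. The sign of the expression difference was shared by 316 of 857 genes higher in MEP in input RNA (36.9%) and by 1294 of 1771 genes lower in MEP (73.1%), with median new RNA differences of -0.27 and -0.67. The median of all genes tested was negative too, at -0.49, and negative signs prevailed in both groups. The 73.1% is therefore not read as a match between expression and new RNA. Across 12672 genes, which are not independent replicates, the expression and new RNA differences had a Pearson r of 0.150. The new RNA medians were -0.16 for erythroid transcription factors, -0.22 for haem genes, -0.26 for globins and -0.32 for red cell membrane genes, all nearer to 0 than the median of all genes. Among single lineage genes, 4 with separate groups are given, chosen after their values were seen. Gata1 had 1.08 and 1.21% in MEP, against 0.0372 and 0.670% in CMP. Epor had 1.08 and 2.80% in MEP, against 0 and 0.237% in CMP. Myc had 2.71 and 6.06% in MEP, against 2.66 and 2.65% in CMP, and Flt3 had 0.349 and 0.162% in MEP, against 1.60 and 1.22% in CMP. The groups of these 4 genes did not overlap, for Myc by a narrow margin, and none of the 4 passed the threshold by limma.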

How the data were processed

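Per the submitters' processing notes, fastp, Trimmomatic, kallisto and the assembly GRCm38 were used, with no version or role stated. For the atlas IP libraries the authors deposited whole-number counts, and for those of the second set estimated counts, which were rounded. The deposited input signal is normalised: each library's counts were divided by a factor of its own, from which whole reads were recovered within a tolerance of 0.1 of a read for 100% of the values of the MEP and CMP libraries, so that the library totals could be given. The new RNA values the authors deposited are a fraction, the share of T-to-C conversions of each gene, printed here as percent and of unknown depth.

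Tests of input RNA used limma 3.58.1 (R 4.3.3) with trend and robust moderation on values plus 1, log2-transformed, 1 mean per cell type over all 32 atlas inputs (28 inputs and 1 mean per genotype and type in the second set), keeping genes with at least 10 in at least 2 libraries. Fold changes on this scale understate changes of low genes. Enrichment was tested with limma on IP and input together, each table scaled by TMM on its own. For IP counts edgeR 4.0.16 and its quasi-likelihood test were used, an addition made after seeing the data. For new RNA limma was run on the log2 of percent plus 0.1, over genes that exceeded 0 in at least 6 libraries. All tests were two-sided, adjusted by Benjamini-Hochberg over all genes tested, with a threshold of 0.05. The atlas and new RNA fits were also run on simulated data with a spread set in advance. That spread is not the one of these libraries, and the outcome is not reported here. Alternatives were a pseudocount of 10, no filter, MEP and CMP alone, TMM factors, edgeR and DESeq2 1.42.0 on recovered reads (without GMP input 2, whose step is near 1), a replicate block, and each library left out. The deviations of same-numbered MEP and CMP libraries had a correlation of 0.238 in the atlas input, 0.025 in the atlas IP, 0.347 in the second set input, 0.323 in the second set IP and -0.042 in new RNA. Each was taken over genes, from 1 difference between replicates in MEP and 1 in CMP. No label ties a replicate number to a shared animal or batch, so the numbers were not taken as pairing the samples.

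The comparison and the gene lists were chosen with earlier results of these data known. The text names genes by a rule. It takes the 12 highest and 12 lowest called differences of genes whose groups do not overlap and whose mean is at least 50, up to 5 called members of each of 33 lists with the largest differences first, the cell type markers, and Mettl3, Igf2bp2, Gata1, Klf1, Epor, Spi1, Cebpa, Gata2, Cd34, Flt3 and Myc. The text describes only some of them, and a few genes under the rule are not reported here. Tal1, Lmo2, Nfe2, Kit, Mllt3, Il1rl1, Atp1b1, Arid5a, Nod2, Tspan7 and Dmxl2 fall outside it and were chosen after their values were seen. RefSeq windows were matched by symbol for 12116 of the tested genes.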

Additional observations from a re-analysis of the deposited data

Results flagged for a closer look

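Il2rb, a receptor chain of T and NK cells, had normalised counts of 47.3 and 43.1 in MEP, against 3.33 and 21.3 in CMP, in the atlas, and was called higher in MEP (log2 difference 2.23, adjusted p = 0.0216 by limma). In the second set it had 5.54 and 3.16 in MEP, against 8.10 and 9.80 in CMP, a log2 difference of -0.93 (adjusted p = 0.772 by limma). Every MEP library lay above every CMP library in the first and below in the second, and the difference between the sets was not tested. In the atlas the call was lost with MEP and CMP fitted alone and with edgeR on recovered reads. It was also lost without MEP input 1, MEP input 2 or CMP input 1.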

How the results depend on the processing

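No call of a named gene changed sign under any alternative run. Of 120 called genes named by the rule 95 stayed called in every setting and 25 were lost in at least 1, 22 of them on leaving out a library. The 967 genes higher in MEP were 612 with MEP and CMP fitted alone and between 458 and 772 on leaving out 1 library (531 without MEP input 1, 458 without MEP input 2, 467 without CMP input 1), and the 2010 lower were between 1422 and 1572. DESeq2 gave 1372 higher and 2431 lower, edgeR 1153 and 2088, and the replicate block 994 and 2023. In the second set, leaving out 1 library gave 31 to 178 higher and 466 to 687 lower, edgeR on recovered reads gave 221 higher and 797 lower, and the block 435 and 1216. For enrichment, DESeq2 size factors gave 1 gene higher, a pseudocount of 10 and MEP and CMP alone gave 0 lower, and leaving out 1 library gave 0 to 1. For IP levels, DESeq2 gave 501 higher and 1538 lower, leaving out 1 library gave 45 to 102 higher and 466 to 682 lower, and the block 242 and 976. For new RNA, genes above 0 in all libraries gave 0 lower, the block 1, and leaving out 1 library 0. The cause of these shifts was not tested, except that leaving out a library leaves a cell type with 1, assumed to vary like the others. With 2 libraries per cell type, the standard error of an expression difference had a median of 0.55 on the log2 scale, which limits what could be called.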

Other observations

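Genes of antigen presentation and innate sensing were lower in MEP for 11 of 17 and higher for 0, with a median log2 difference of -3.56 (-2.85 with genes at 0 set to the bound that 3 reads allow). They include Ncf4, a subunit of the phagocyte oxidase, at -6.38, and the adaptors Tyrobp and Fcer1g at -6.27 and -6.05, all called by limma. In IP counts 9 of the 17 were lower, and in the second set 7 of the 15 tested were lower. Of 17 immediate early and heat shock genes 3 were lower, led by Fos at -4.50, and the list median was 0.00. Of 32 genes of oxidative phosphorylation 1 was higher, Uqcrfs1 at 0.89, which was lost on leaving out any of the 4 input libraries and with MEP and CMP fitted alone, at an adjusted p of up to 0.221 by limma.

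Several genes with the largest differences lie outside the lists. Ctse, the aspartic protease cathepsin E, had 24284 and 30919 in MEP, against 686 and 1179 in CMP (log2 difference 4.93 ± 0.33 SE, adjusted p = 4.32e-11 by limma). Serpinf1, a secreted serpin with antiangiogenic activity, had 2.66 and 2.63 in MEP, against 3460 and 2162 in CMP (log2 difference -9.55 ± 0.40 SE, adjusted p = 3.99e-14 by limma). Both kept their direction and call in the second set, where Ctse differed by 5.15 and Serpinf1 by -5.44. Dnmt3c, a DNA methyltransferase known from rodent male germ cells, had 230.0 and 227 in MEP, against 6.65 and 9.02 in CMP (log2 difference 4.71 ± 0.81 SE, adjusted p = 9.54e-05 by limma).

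Ribosomal protein genes, 0 of 30 of which were called by limma, had a summed level of 324519 and 337427 in MEP, against 425777 and 179315 in CMP. The CMP libraries stood on either side of the MEP libraries, and the median difference between CMP input 1 and CMP input 2 over the list was 1.17 on the log2 scale. Over the primary granule genes it was 1.00, CMP input 1 being higher in both lists. Arid5a, an RNA-binding regulator of inflammatory transcripts chosen after its values were seen, had the lowest p among genes with a higher enrichment in MEP. Its scaled input counts were 34.7 and 53.5 in MEP, against 939 and 1013 in CMP, and its scaled IP counts were 123 and 113 in MEP, against 403 and 311 in CMP. Its enrichment differed by 2.89 ± 0.56 (SE), with an adjusted p of 0.0701 by limma, which missed the threshold.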
